A study of Arabidopsis thaliana with 9 samples.

Results

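The 6 arrays of the low-ascorbate mutants vtc1-1 and vtc2-1 of Arabidopsis thaliana were taken as one group and set against the 3 arrays of the wild type Col-0, to describe what the seedlings low in vitamin C had in common. Members were chosen by the genotype in the labels, and the 9 arrays compared are all 9 of the study. Col-0 and vtc2-1 share the Col-0 background, and vtc2-1 is labelled as a mutation induced with EMS, a chemical mutagen. The vtc1-1 seeds carry a stock code, and the labels give no background for them. Each mutant is a single line, so that a second mutation in either line cannot be told apart from the effect of lowered ascorbate on that line. All seedlings were kept in the dark and cold for 3 days as seeds, then grown on agar plates to 14 days and harvested whole. Each sample gave 1 Affymetrix ATH1 array from its total RNA, with 3 arrays per genotype. Nothing in the labels says that replicates came from separate sowings, so the spread behind the p-values may be technical only. Ascorbate itself was not measured in the files used here.

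Ascorbate, or vitamin C, is the main water-soluble antioxidant of plant cells and a cofactor of enzymes that make or inactivate hormones and modify the cell wall. Plants make most of it from GDP-mannose: VTC1 encodes the enzyme that forms GDP-mannose, and VTC2 encodes the enzyme of the first step committed to ascorbate. Used ascorbate is recycled by the ascorbate-glutathione cycle, in which peroxidases spend it on hydrogen peroxide and reductases restore it. Neither VTC1 nor VTC2 is paired with a probe set in the annotation used here, so the genotypes were not checked by the transcripts of the mutated genes.

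Median signals of the 9 arrays lay between 43.02 and 45.2. A probe set, the array's unit of measurement for a transcript, was tested if its signal was above the 40th percentile of its array in at least 3 of the 9 arrays, which held for 14603 of 22810. Precision is limited by there being only 9 arrays. The 3 Col-0 arrays did not lie together. Across tested probe sets, which are not independent, the correlation was 0.933 between Col-0 replicates 1 and 2. For Col-0 replicate 3 it was 0.874 and 0.889 with these arrays and 0.916 to 0.931 with the 6 mutant arrays. Its score on the first principal component was 36.8, against -47.5 and -37.4 for Col-0 replicates 1 and 2 and -9.19 to 28.0 for the mutants. The mean variance of log2 signals was 0.260 in Col-0, 0.166 in the low-ascorbate group and 0.176 in Col-0 replicates 1 and 2. Results below are therefore given with all 9 arrays first. The fit without Col-0 replicate 3 is reported for some of them, and a value given alone may still change without that array.

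**Figure D1:**
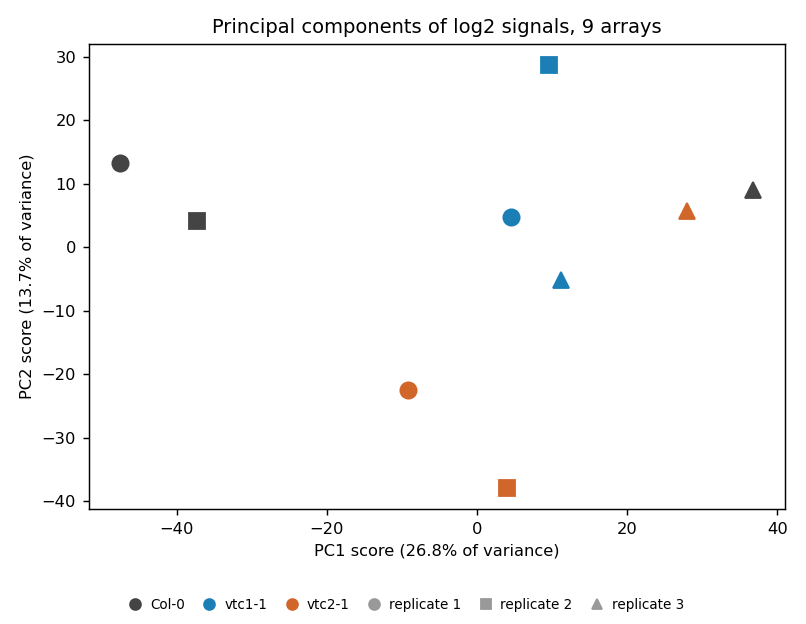
Scores of the 9 arrays on the first principal component (x axis, 26.8% of variance) and the second (y axis, 13.7% of variance) of log2 signals, over tested probe sets. Colours stand for genotypes and marker shapes for replicate numbers. Col-0 replicates 1 and 2 lie at the left, at -47.5 and -37.4, and Col-0 replicate 3 lies at the right, at 36.8, beyond all 6 low-ascorbate arrays.

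With all 9 arrays no transcript passed the test between low-ascorbate seedlings and Col-0, so the genes that follow are given as values. Among genes with complete separation that were also bright, the largest difference on the higher side was in PDF1.2b, a plant defensin of the jasmonate and ethylene branch of defence, whose 6 low-ascorbate signals all lay above the Col-0 signals. SCPL45, a serine carboxypeptidase-like protein, was 1.97 times as bright in low ascorbate as in Col-0. On the lower side AT1G76240 and AT1G18740 stood at 0.495 and 0.505 times their Col-0 level.

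In limma, with p-values adjusted by the Benjamini-Hochberg method over all tested probe sets, 0 of 14603 (0%) had an adjusted p under 0.05, and the smallest adjusted p was 0.350. At an unadjusted p under 0.05 there were 920 probe sets, where 730 would be reached by chance with independent probe sets. Of these, 589 (4.03% of those tested) were higher and 331 (2.27%) lower in low ascorbate. At an unadjusted p under 0.001 there were 19, of which 12 were higher and 7 lower, against 14.6 by chance. All 6 low-ascorbate arrays were above all 3 Col-0 arrays at 219 probe sets (1.5%), and below them at 139 (0.952%). These complete separations were mostly small, with a median log2 difference of 0.45 in size in either direction. A log2 difference of at least 1 was reached by 16 of the 219 and 12 of the 139. Among the 219, Col-0 replicate 3 was the Col-0 array nearest to the mutants in 46.1%, and among the 139 in 44.6%.

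The genes named first had complete separation, a mean above the median of tested probe sets in the brighter group and an unadjusted limma p under 0.001. This left 5 genes on the higher and 4 on the lower side, of up to 12 each that the rule allowed. Because they were picked for complete separation, the lack of overlap in them is not a finding.

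PDF1.2b had signals of 13.1, 15.7 and 18.7 in Col-0 replicates 1, 2 and 3, of 83.8, 97.0 and 386.2 in vtc1-1 and of 46.0, 104 and 83.9 in vtc2-1. The Col-0 arrays were close together and dim, and vtc1-1 replicate 3 stood far above the other mutant arrays. Its log2 difference was 2.73 ± 0.47 (SE, 6 against 3 arrays; limma adjusted p = 0.350). In Col-0 it was below the 40th percentile of each array, and with that percentile as a floor PDF1.2b was at least 3.57-fold higher in low ascorbate. Without vtc1-1 replicate 3, the array with the highest value, PDF1.2b was the only transcript called (limma adjusted p = 0.0331). Closely related defensin transcripts may bind the same probe set, so the gene behind the signal is uncertain. PDF1.2, measured by another probe set, had signals of 28.9, 3.11 and 27.1 in Col-0, of 40.25, 38.2 and 92.6 in vtc1-1 and of 6.4, 38.9 and 39.7 in vtc2-1. Its groups overlapped, and its log2 difference was 1.32 ± 0.81 (limma unadjusted p = 0.126). All 3 Col-0 signals of PDF1.2 and that of vtc2-1 replicate 1 were below the 40th percentile of their arrays, so this size is uncertain.

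SCPL45 had signals of 79.0, 76.7 and 93.5 in Col-0, of 189.6, 164 and 142 in vtc1-1 and of 185, 183 and 125 in vtc2-1. Every mutant array exceeded the brightest Col-0 array by a clear step, and the mutants differed little from each other. The log2 difference was 0.98 ± 0.16 (limma adjusted p = 0.350), made of 0.99 ± 0.20 in vtc1-1 and 0.97 ± 0.20 in vtc2-1. The interval of the difference between the mutants ran from -0.45 to 0.41 (95%, limma).

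AT3G23550, a MATE-type efflux transporter, had signals of 58.0, 77.8 and 103 in Col-0, of 176, 191 and 217 in vtc1-1 and of 112, 158 and 147 in vtc2-1. The brightest Col-0 array, replicate 3, was close to the dimmest vtc2-1 array. The log2 difference was 1.08 ± 0.22, with 1.33 ± 0.22 in vtc1-1 and 0.83 ± 0.22 in vtc2-1. The interval of the difference of vtc2-1 from vtc1-1 ran from -0.98 to -0.02 (95%, limma adjusted p = 0.998).

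AT5G44400, a berberine bridge enzyme-like oxidase, had signals of 55.3, 84.8 and 107 in Col-0, of 128, 114 and 187 in vtc1-1 and of 163, 166 and 170 in vtc2-1. Here the 3 vtc2-1 arrays were nearly equal, and vtc1-1 replicate 2 lay just above Col-0 replicate 3. The log2 difference was 0.94 ± 0.21. AT3G43590, a zinc knuckle protein, had signals of 49.8, 69.2 and 60.8 in Col-0, of 94.0, 105 and 108 in vtc1-1 and of 104, 91.9 and 134 in vtc2-1, and its Col-0 replicate 3 lay between the other Col-0 arrays. Its log2 difference was 0.83 ± 0.17, with 0.78 ± 0.20 in vtc1-1 and 0.87 ± 0.20 in vtc2-1.

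On the lower side AT1G76240 had signals of 209, 183 and 134 in Col-0, of 72.3, 65.8 and 102 in vtc1-1 and of 100.7, 91.7 and 86.4 in vtc2-1. Col-0 replicate 3 was the Col-0 array nearest to the mutants. The log2 difference was -1.01 ± 0.19 (limma adjusted p = 0.376), with -1.13 ± 0.22 in vtc1-1 and -0.90 ± 0.22 in vtc2-1.

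AT1G18740 had signals of 160, 205 and 337 in Col-0, of 129, 143 and 124 in vtc1-1 and of 108, 103 and 79.7 in vtc2-1. Here Col-0 replicate 3 lay on the far side of the other Col-0 arrays from the mutants. The log2 difference was -0.99 ± 0.23 with all arrays and -0.69 ± 0.21 without Col-0 replicate 3, and it was called in neither (limma adjusted p = 0.668 and 0.120).

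AT4G32030 had signals of 146, 106 and 97.0 in Col-0, of 72.0, 69.3 and 62.7 in vtc1-1 and of 45.5, 69.7 and 70.4 in vtc2-1, a log2 difference of -0.84 ± 0.19. AT1G61740, a membrane protein of the TauE/SafE family, was bright in all arrays, with signals of 741, 839 and 598 in Col-0, of 482, 516 and 492 in vtc1-1 and of 433, 435 and 463 in vtc2-1. The 6 mutant arrays of AT1G61740 spanned a narrow range, and its log2 difference was -0.62 ± 0.13.

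**Figure D2:**
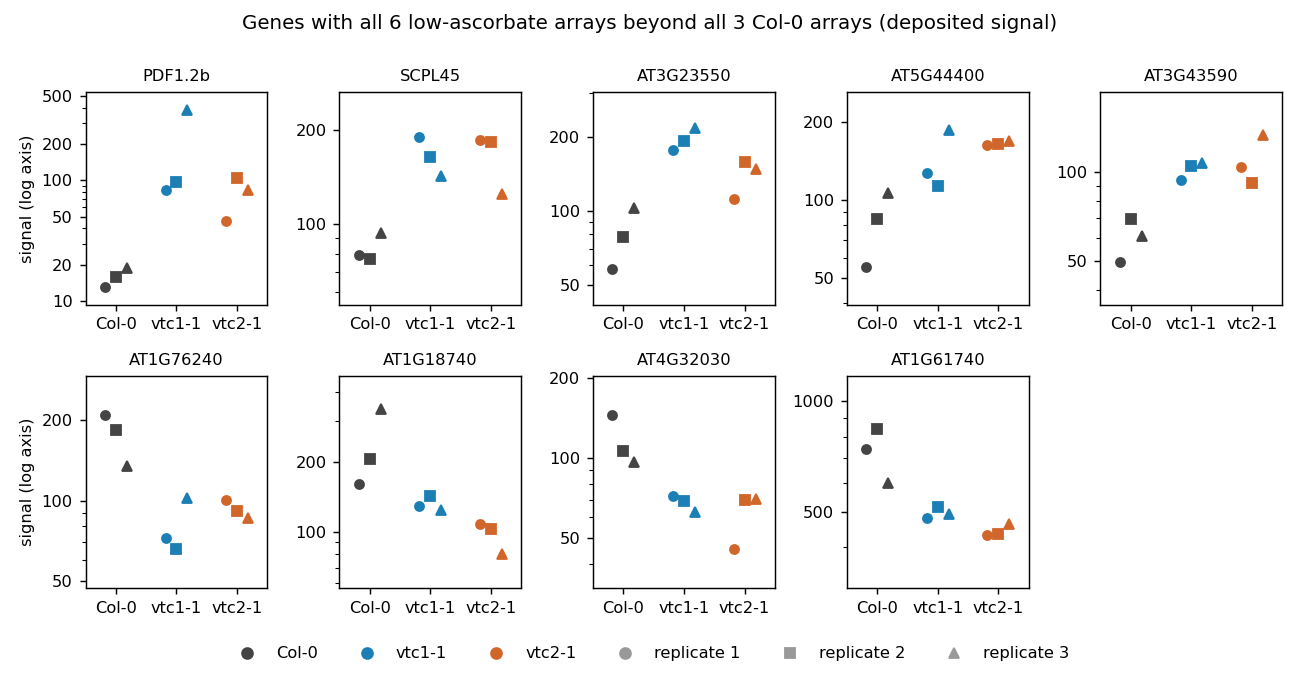
Deposited signal (y axis, log scale) of the 9 leading genes in each of the 9 arrays, by genotype (x axis and colour) and replicate (marker shape). In each panel all 6 low-ascorbate arrays lie on one side of the 3 Col-0 arrays, as the choice of genes required. PDF1.2b has the widest gap, with Col-0 at 13.1 to 18.7 and the mutants at 46.0 to 386.2.

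Within the low-ascorbate group, 1 of the 19 probe sets with an unadjusted p under 0.001 had an unadjusted p under 0.05 between vtc2-1 and vtc1-1. The pooled comparison counts a difference between the mutants as spread, which favours such a result. Over all tested probe sets limma called 1 (0.00685%) between the mutants, a probe set that the annotation pairs with no gene. Its signals were 988, 955 and 592 in Col-0, 1302, 1106 and 913 in vtc1-1 and 218, 195 and 243 in vtc2-1, so that all 3 vtc2-1 arrays lay below the other 6. Which gene it measures, a mutated one included, was not tested, so it gives no check of the genotypes. The log2 difference of vtc2-1 from vtc1-1 was -2.33 ± 0.21 (limma adjusted p = 0.00109). AT5G05600, a jasmonate-inactivating oxygenase, had signals of 111, 103 and 59.8 in Col-0, of 29.8, 23.7 and 8.12 in vtc1-1 and of 58.3, 53.1 and 66.9 in vtc2-1. Its pooled log2 difference of -1.44 ± 0.54 rested mostly on vtc1-1, at -2.30 ± 0.42, against -0.58 ± 0.42 in vtc2-1. The difference between the mutants was 1.72 (95% interval 0.80 to 2.64, limma unadjusted p = 0.00143, adjusted p = 0.998). In vtc1-1 replicates 2 and 3 AT5G05600 was below the 40th percentile of the array, so the sizes of its differences that involve vtc1-1 are uncertain.

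A further 3 genes with an unadjusted p under 0.001 are named here after their values were seen, because they miss a condition of the rule. Of the 19 probe sets at that p, 13 name 1 gene, and not all of these are described. AT3G09540, a pectin lyase-like protein, was even in Col-0 at signals of 24.7, 27.7 and 26.0, and reached 39.9, 61.6 and 57.1 in vtc1-1 and 67.9, 44.95 and 63.7 in vtc2-1. All 3 Col-0 signals were below the 40th percentile of their arrays, and against that floor it was at least 1.88-fold higher. AT4G16970, of the protein kinase superfamily, had signals of 13.0, 10.8 and 5.54 in Col-0, of 30.9, 41.9 and 32.8 in vtc1-1 and of 49.5, 36.0 and 22.5 in vtc2-1, at least 1.19-fold higher against the same floor. AT4G36430, a class III peroxidase, had signals of 42.2, 47.9 and 121 in Col-0, of 126, 115 and 153 in vtc1-1 and of 162, 168 and 138 in vtc2-1, so that Col-0 replicate 3 alone reached into the mutant range. Its log2 difference was 1.18 ± 0.27 with all arrays (limma adjusted p = 0.668), and without Col-0 replicate 3 it rose by 1.66 ± 0.18 (limma adjusted p = 0.00147).

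Leaving out 1 Col-0 array changed the outcome of the test. Without Col-0 replicate 3, limma called 161 of 14603 probe sets, of which 116 (0.794%) rose and 45 (0.308%) fell in low ascorbate. Without Col-0 replicate 1 or 2 it called 0, and among the mutants it called 1 without vtc1-1 replicate 3 and 0 without any other. Col-0 replicate 3 stood apart in these same data, and its omission leaves 2 Col-0 arrays. Calls made without it, here and below, are therefore no separate evidence. Complete separation, easier to reach with fewer arrays, was found at 2562 probe sets without Col-0 replicate 3. It was found at 880 without Col-0 replicate 1 and at 844 without Col-0 replicate 2. The omitted array was closer to the low-ascorbate mean than to the other Col-0 arrays at 154 of the 161 (95.7%). This held for 68.8% of all tested probe sets, and calling the 161 without that array makes it more frequent among them. The low-ascorbate mean rests on 6 arrays and the other Col-0 arrays number 2, which may also raise both shares. With all arrays 107 of the 161 had an unadjusted p under 0.05, and 13 had complete separation. For 3 control transcripts probed at both ends, a sign of RNA quality, the log2 ratio of the 3' to the 5' signal averaged 1.74 in Col-0 replicate 3 and between 1.28 and 1.88 in the other arrays. Between the groups this ratio differed by less than its spread, at 0.00395 (exact two-sided permutation test, p = 0.905, where 0.0238 is the smallest value possible).

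**Figure D3:**
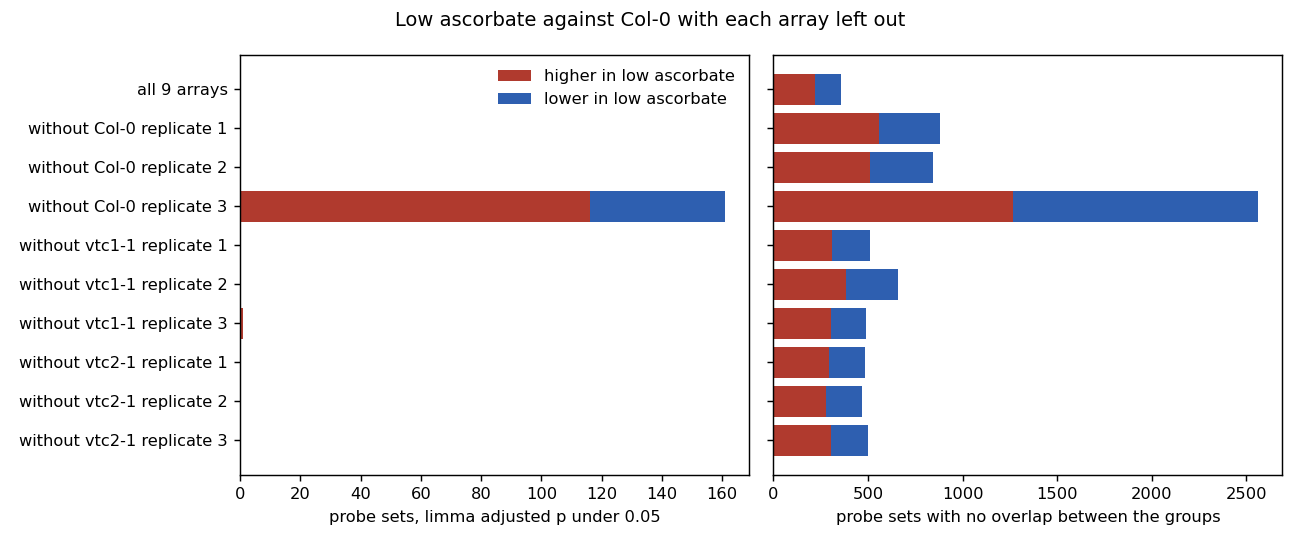
Number of probe sets (x axes) with a limma adjusted p under 0.05 (left) and with no overlap between the groups (right), with all 9 arrays and with each array left out (y axis). Red bars count probe sets higher and blue bars those lower in low ascorbate. Leaving out Col-0 replicate 3 gives 161 calls and 2562 separations, and no other omission gives more than 1 call or 880 separations.

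The 3 rises that the naming rule took from the fit without Col-0 replicate 3 were also high in that array. The rule left out dimmer genes, some of which rose more. AT1G19960 had signals of 2.17, 1.49 and 135 in Col-0, of 136, 193 and 131 in vtc1-1 and of 24.8, 75.9 and 260.4 in vtc2-1. Without Col-0 replicate 3 it rose at least 3.73-fold against the 40th percentile as a floor (limma adjusted p = 0.00147). With all 9 arrays its groups overlapped, and vtc2-1 replicate 1 was below the 40th percentile itself.

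AT1G76960 had signals of 4.14, 5.48 and 172 in Col-0, of 81.8, 92.5 and 148 in vtc1-1 and of 41.9, 84.1 and 362.8 in vtc2-1, and rose at least 3.63-fold without Col-0 replicate 3 (limma adjusted p = 0.00280). AT4G12490, a lipid-transfer type protein of the AZI family, which acts in priming of defence, had signals of 62.7, 68.5 and 1495 in Col-0, of 874, 1160 and 910 in vtc1-1 and of 272, 280.3 and 1573 in vtc2-1. In that fit its log2 difference was 3.40 ± 0.53, a rise past the threshold (limma adjusted p = 0.0209), against 1.90 ± 0.85 with all arrays. In all 3 genes vtc2-1 replicate 3 was the brightest vtc2-1 array, and Col-0 replicate 3 lay within the range of the mutants.

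AT2G32150, a haloacid dehalogenase-like hydrolase, had signals of 769, 754 and 333 in Col-0, of 291, 502 and 199.7 in vtc1-1 and of 311, 309 and 163 in vtc2-1. AT2G15020 had signals of 116, 191 and 32.0 in Col-0, of 60.9, 41.1 and 65.9 in vtc1-1 and of 65.8, 79.6 and 49.2 in vtc2-1. AT1G68440 had signals of 248, 329.9 and 116 in Col-0, of 139, 149 and 138 in vtc1-1 and of 132, 131 and 91.0 in vtc2-1. Col-0 replicate 3 was below all 6 mutant arrays in AT2G15020 and below 5 of them in AT1G68440. In the fit without it all 3 genes fell, AT2G32150 by 1.46 ± 0.30, AT2G15020 by 1.34 ± 0.26 and AT1G68440 by 1.16 ± 0.19 in log2 units (limma adjusted p = 0.0412, 0.0279 and 0.0231).

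Of the 9 leading genes, 7 were called in the fit without Col-0 replicate 3, which called 161 of all 14603 probe sets. That fit reuses arrays on which the 9 genes were picked for a small p, so these calls are no separate evidence. PDF1.2b rose by 2.86 ± 0.52, SCPL45 by 1.07 ± 0.18, AT3G23550 by 1.28 ± 0.22 and AT5G44400 by 1.15 ± 0.22, while AT1G76240 fell by 1.19 ± 0.20, AT4G32030 by 0.96 ± 0.22 and AT1G61740 by 0.75 ± 0.13 in log2 units (limma adjusted p of 0.0209 to 0.0483). The exceptions were AT3G43590, at 0.84 ± 0.19 (limma adjusted p = 0.0519), and AT1G18740.

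**Figure D4:**
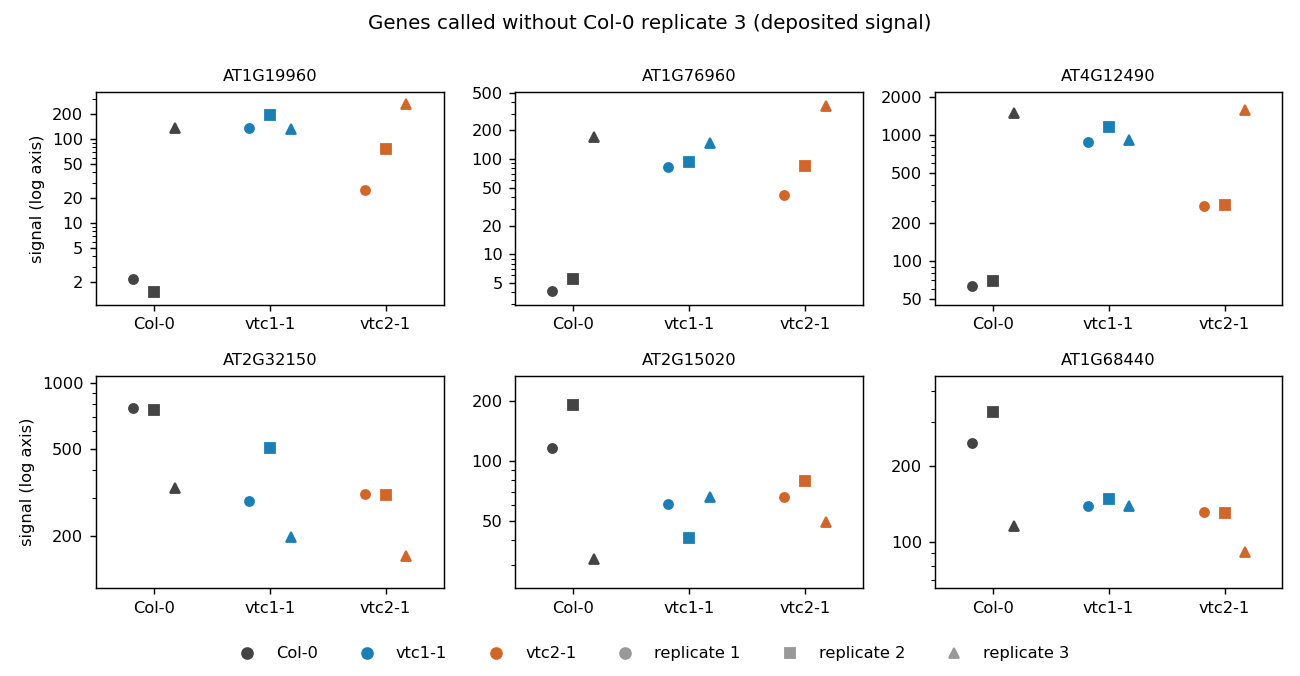
Deposited signal (y axis, log scale) in each array of 6 genes called by limma without Col-0 replicate 3, by genotype (x axis and colour) and replicate (marker shape). Col-0 replicate 3, the grey triangle, lies apart from the other 2 Col-0 arrays in each panel and at or beyond the level of the mutants, as for AT4G12490 at 1495 against 62.7 and 68.5.

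Genes of ascorbate synthesis lay on both sides of Col-0. Of 20 listed members 9 were tested, 2 of which were higher and 1 lower at an unadjusted p under 0.05. At that p 4.03% of all tested probe sets were higher and 2.27% lower. The median log2 difference of the 9 was 0.01, as over all tested probe sets. GME, the GDP-mannose epimerase that links VTC1 and VTC2 in the pathway, had signals of 1074, 1066 and 788 in Col-0, of 839, 839 and 854 in vtc1-1 and of 636, 591 and 665 in vtc2-1. The vtc2-1 arrays lay below all others, and Col-0 replicate 3 was below the 3 vtc1-1 arrays. The pooled log2 difference of GME was -0.41 ± 0.16 (limma unadjusted p = 0.0246), made of -0.20 ± 0.15 in vtc1-1 and -0.62 ± 0.15 in vtc2-1.

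PMM, the phosphomannomutase one step before VTC1, had signals of 288, 297 and 439 in Col-0, of 409, 431 and 452 in vtc1-1 and of 395, 421 and 456 in vtc2-1. The 6 mutant arrays were close together, and Col-0 replicate 3 lay among them. The log2 difference of PMM was 0.35 ± 0.15 with all arrays (limma unadjusted p = 0.0316) and 0.54 ± 0.13 without Col-0 replicate 3 (limma adjusted p = 0.0530). CSN5B, a signalosome subunit that promotes the breakdown of the VTC1 protein, was dim, with signals of 11.1, 28.3 and 24.8 in Col-0, of 37.3, 33.6 and 25.3 in vtc1-1 and of 39.96, 48.9 and 42.1 in vtc2-1. Its log2 difference was 0.90 ± 0.36 (limma unadjusted p = 0.0238), 2 Col-0 signals and 1 mutant signal were below the 40th percentile, and vtc1-1 replicate 3 overlapped with Col-0.

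Genes of the later steps had no unadjusted p under 0.05. VTC4, the L-galactose 1-phosphate phosphatase, stood at a log2 difference of 0.29 ± 0.17, with signals of 154 to 219 in Col-0 and of 177 to 282 in low ascorbate. AT4G33670, the L-galactose dehydrogenase, stood at 0.01 ± 0.14, with signals of 394 to 492 in Col-0 and of 356 to 513 in low ascorbate. GLDH, the mitochondrial enzyme of the last step, stood at -0.02 ± 0.26, with signals of 76.3 to 128 in Col-0 and of 57.1 to 155 in low ascorbate.

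The remaining tested members were AT1G74910 at -0.02 ± 0.16 and AT2G04650 at -0.29 ± 0.34, both related to VTC1 in sequence, and AT2G40860, listed as VTC3, at 0.07 ± 0.43. Differences of these sizes were smaller than their SE.

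Of 20 members of the ascorbate-glutathione cycle and of ascorbate oxidation, 8 were tested, and none had an unadjusted p under 0.05 in either direction. Their median log2 difference was 0.11, and 6 were above and 2 below Col-0 before any test, against 7459 and 7144 of all tested probe sets. The median was 0.10, 0.19 and 0.07 without Col-0 replicates 1, 2 and 3. SAPX, the stromal ascorbate peroxidase, had signals of 135, 138 and 144 in Col-0, of 147, 123 and 259 in vtc1-1 and of 166, 215 and 221 in vtc2-1, a log2 difference of 0.39 ± 0.21 (limma unadjusted p = 0.0842). Only vtc1-1 replicate 2 was below the Col-0 arrays. TAPX, the thylakoid ascorbate peroxidase, stood at 0.02 ± 0.18, ATMDAR2, a monodehydroascorbate reductase, at 0.19 ± 0.15, and the glutathione reductases GR and GR1 at 0.13 ± 0.14 and 0.09 ± 0.15. The 3 ascorbate oxidase-related genes stood at 0.20 ± 0.20 for AT5G21100, -0.21 ± 0.16 for AT5G21105 and -0.68 ± 0.90 for AT4G39830. AT4G39830 was dim and uneven, with signals of 10 to 65.9 in Col-0 and of 3.08 to 50.6 in low ascorbate, and its value turned to 0.08 without Col-0 replicate 3.

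The medians of the defence lists depended on single Col-0 arrays. Lists were chosen with earlier results of these data known, so a count within a list is no test of its family. Over all tested probe sets 4.03% were higher and 2.27% lower at an unadjusted p under 0.05. The jasmonate list had 4 of 42 members tested, with 1 higher (PDF1.2b) and 1 lower (AT5G05600) at an unadjusted p under 0.05 and a median log2 difference of 0.63. That median was 1.05, -0.05 and 0.87 without Col-0 replicates 1, 2 and 3. In the salicylate list 5 of 41 members were tested, with 0 at an unadjusted p under 0.05 and a median of 0.36, which was 0.26, 0.23 and 0.55 without Col-0 replicates 1, 2 and 3. Its members with the smallest p were AT1G13470 and AT5G55450, a lipid-transfer type protein. AT1G13470 was dim, below the 40th percentile in 2 Col-0 and 3 mutant arrays, with signals of 3.46 to 44.0 in Col-0 and of 12.5 to 42.4 in low ascorbate. AT5G55450 stood at 0.86 ± 0.60 with all arrays and 1.68 ± 0.52 without Col-0 replicate 3, and was called in neither (limma adjusted p = 0.848 and 0.123). AT5G55450 had signals of 54.4, 37.4 and 248.5 in Col-0, of 191, 182 and 189.6 in vtc1-1 and of 47.9, 85.1 and 346.8 in vtc2-1, so that Col-0 replicate 3 lay above 5 of the 6 mutant arrays.

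The 3 tested lipid-transfer genes of the AZI1 and EARLI1 family had a median log2 difference of 0.74 with all arrays. It was 0.70 without Col-0 replicate 1 and 0.48 without Col-0 replicate 2. Without Col-0 replicate 3 the median was 1.54 and 2 of them were called, in a fit that called 0.794% of all tested probe sets higher. AT4G12500 of this family had signals of 140.4, 139.9 and 423 in Col-0, of 426, 465 and 434 in vtc1-1 and of 182, 155 and 624 in vtc2-1. Among 10 tested chitinases and beta-1,3-glucanases, enzymes that degrade fungal walls or callose, 5 were above and 5 below Col-0, with a median of 0.13. That median was -0.62 without Col-0 replicate 1, -0.23 without Col-0 replicate 2 and 0.67 without Col-0 replicate 3, where 3 were called. One of these, ChiC, a chitinase, had signals of 68.0, 94.2 and 226 in Col-0, of 114, 156 and 139 in vtc1-1 and of 184, 207 and 200.3 in vtc2-1.

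AT2G27500, of the glucanase family, was lower in low ascorbate, with signals of 129, 142 and 189 in Col-0, of 119, 97.6 and 105 in vtc1-1 and of 86.0, 87.8 and 114 in vtc2-1. Its log2 difference was -0.58 ± 0.17 (limma unadjusted p = 0.00376) and -0.42 ± 0.18 without Col-0 replicate 3, and its groups did not overlap. PR-1-LIKE, a secreted CAP protein related to the defence marker PR1, had signals of 1.96, 21.2 and 3.08 in Col-0, of 32.9, 24.4 and 41.6 in vtc1-1 and of 55.9, 47.5 and 27.8 in vtc2-1. All 3 Col-0 signals and 2 of the mutant signals were below the 40th percentile of their arrays, so only a bound of at least 1.26-fold higher can be given. PR-1-LIKE was the 1 of 7 tested CAP proteins with an unadjusted p under 0.05. Of all tested probe sets 4.03% were higher and 2.27% lower at that p.

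The thaumatin-like proteins, wall-associated proteins of the PR5 family, had 11 of 20 members tested. At an unadjusted p under 0.05, 3 of these were higher and 1 lower, against 4.03% and 2.27% of all tested probe sets. Their median was 0.09. That median was -0.17, 0.03 and 0.41 without Col-0 replicates 1, 2 and 3. ATLP-1 of this family had signals of 63.2, 81.4 and 87.8 in Col-0, of 99.9, 113 and 126 in vtc1-1 and of 96.6, 112 and 129.7 in vtc2-1, a log2 difference of 0.55 ± 0.16 (limma unadjusted p = 0.00427). Both mutants stood at 0.55 ± 0.19, with an interval of their difference from -0.42 to 0.41 (95%, limma). Of 15 tested serine carboxypeptidase-like proteins, 2 were higher and 1 lower at an unadjusted p under 0.05, with a median of 0.10, which was 0.02, 0.12 and 0.12 without Col-0 replicates 1, 2 and 3. Beside SCPL45 this included scpl48, with signals of 98.4, 106 and 125 in Col-0, of 120.1, 144 and 167 in vtc1-1 and of 174, 171 and 153 in vtc2-1, a log2 difference of 0.49 ± 0.15. The larger enzyme families gave few values of this kind: of 26 tested UDP-glycosyltransferases 1 was higher and 0 were lower, and of 15 cytochromes P450, 9 glutathione transferases and 10 berberine bridge enzyme-like oxidases 0, 0 and 1 were higher. The 1 glycosyltransferase was UGT78D1, which adds rhamnose to flavonols, at 0.57 ± 0.26 (limma unadjusted p = 0.0467), with 0.85 ± 0.27 in vtc1-1 and 0.29 ± 0.27 in vtc2-1.

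Of the lists with at least 3 tested members, those with all of them below Col-0 were the lists of the endoplasmic reticulum body, a defence compartment of seedlings and roots, and of early wound and touch genes, with 5 tested members each. The lists were named for lying below Col-0, so this is no test of their families. Over all tested probe sets 7144 of 14603 were below Col-0. At an unadjusted p under 0.05, 4.03% of them were higher and 2.27% lower. The endoplasmic reticulum body list had a median log2 difference of -0.30. Its 1 member lower at that p was NAI1, the transcription factor required for these bodies. PYK10 of the same list stood at -0.04 ± 0.27, with -0.42 ± 0.25 in vtc1-1 and 0.34 ± 0.25 in vtc2-1. Without Col-0 replicate 3 PYK10 stood at 0.04 ± 0.30, so that not all members were then below Col-0. NAI1 had signals of 83.7, 93.7 and 91.1 in Col-0, of 42.9, 42.4 and 54.6 in vtc1-1 and of 75.0, 72.3 and 50.1 in vtc2-1, a log2 difference of -0.71 ± 0.21 (limma unadjusted p = 0.00491). The Col-0 arrays of NAI1 were close together, replicate 3 included, and without replicate 3 its value was -0.69 ± 0.25. In samples of whole seedlings, fewer cells of a type and less RNA per cell cannot be told apart. The 6 tested root markers, which include NAI1, NAI2 and PYK10, had summed signals of 3232 to 4479 in Col-0 and of 2394 to 5817 in low ascorbate. PYK10 alone had signals of 2465 to 3001 and of 1726 to 4406, so the root sum was mostly PYK10 and is no separate measure of root share. The 5 tested shoot markers had summed signals of 21870 to 32290 and of 26660 to 30790. Median log2 differences of the root and shoot markers were -0.13 and 0.01 with all arrays and 0.18 and -0.12 without Col-0 replicate 3. At an unadjusted p under 0.05 there were 1 root and 0 shoot markers, while no marker was at 0. Their part in the result for NAI1 was not tested. JAL33, a jacalin-related lectin found with the beta-glucosidase of these bodies, was low in vtc1-1 at signals of 652, 591 and 457 and uneven in vtc2-1 at 1697, 1190 and 416, against 1096, 1067 and 1456 in Col-0.

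The wound and touch list had a median of -0.56 with all arrays, of -0.99 without Col-0 replicate 1 and of 0.08 without Col-0 replicate 3. Its member with the smallest p, EXLA1, an expansin-like wall protein, kept its value, at -0.72 ± 0.23 with all arrays (limma unadjusted p = 0.00780) and -0.73 ± 0.26 without that array. EXLA1 had signals of 192, 281 and 226 in Col-0, of 161, 208 and 153 in vtc1-1 and of 113, 147 and 88.3 in vtc2-1, and vtc1-1 replicate 2 was above Col-0 replicate 1. Among 6 tested expansins, xyloglucan-modifying enzymes and related wall proteins, the median was -0.02 (0.12 without Col-0 replicate 1). At an unadjusted p under 0.05, 1 member was higher and 1 lower, against 4.03% and 2.27% of all tested probe sets.

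EXPA4, an expansin that loosens walls, had signals of 126, 178 and 228 in Col-0, of 185, 212 and 248 in vtc1-1 and of 277, 283 and 337 in vtc2-1, a log2 difference of 0.55 ± 0.21. SKU5, a wall and membrane protein of directional root growth, had signals of 763, 1029 and 524 in Col-0, of 555, 567 and 596 in vtc1-1 and of 411, 359 and 383 in vtc2-1. Its log2 difference was -0.67 ± 0.22 with all arrays, and without Col-0 replicate 3 it fell by 0.92 ± 0.20 (limma adjusted p = 0.0483). In EXLA1, EXPA4 and SKU5 vtc2-1 lay farther from Col-0 than vtc1-1 did, with log2 differences of vtc2-1 from vtc1-1 of -0.60, 0.48 and -0.58, none of which passed the threshold (limma adjusted p = 0.998 in each).

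The iron deficiency list had 2 tested members, with a median log2 difference of -0.49 with all arrays and of 0.13 without Col-0 replicate 3. PYE, a transcription factor of the iron deficiency response, had signals of 80.3, 64.2 and 71.5 in Col-0, of 49.1, 40.2 and 58.5 in vtc1-1 and of 55.7, 42.1 and 41.5 in vtc2-1. Its groups did not overlap, and its log2 difference was -0.60 ± 0.19 with all arrays and -0.60 ± 0.23 without Col-0 replicate 3 (limma unadjusted p = 0.00739 with all arrays). COR15B, a cold-induced protein that protects plastid membranes, had signals of 45.5, 56.7 and 52.6 in Col-0, of 108, 83.3 and 51.8 in vtc1-1 and of 92.2, 109 and 86.1 in vtc2-1. Only vtc1-1 replicate 3 lay in the Col-0 range, and the log2 difference was 0.74 ± 0.22 (limma unadjusted p = 0.00481).

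Transcripts of the organelle genomes did not separate the groups. Of 69 tested plastid-encoded transcripts 26 were above and 43 below Col-0, with a median log2 difference of -0.08, which was 0.13 without Col-0 replicate 1 and -0.25 without Col-0 replicate 3. At an unadjusted p under 0.05 there was 1 higher, rpoA, the alpha subunit of the plastid RNA polymerase, at 0.45 ± 0.19. The 1 lower was psbF, a cytochrome b559 subunit of photosystem II, at -0.29 ± 0.13. Over all tested probe sets 4.03% were higher and 2.27% lower at that p, and 7459 lay above and 7144 below Col-0. Signals of psbF were 2804, 2340 and 2120 in Col-0, 2174, 1952 and 1811 in vtc1-1 and 2196, 1809 and 1884 in vtc2-1. Of 10 tested mitochondrial transcripts 8 were above and 2 below Col-0, with a median of 0.27 and 0 at an unadjusted p under 0.05. That median was 0.41, 0.10 and 0.12 without Col-0 replicates 1, 2 and 3. The 6 tested reference genes, chosen for even expression, had a median of 0.08 and ranged from -0.12 to 0.33. The highest of them, AT4G26410, had signals of 266, 270.2 and 207 in Col-0, of 319.5, 271 and 312 in vtc1-1 and of 301, 321 and 333 in vtc2-1. Its groups did not overlap, so that a complete separation with a log2 difference of 0.33 ± 0.13 also occurred in a gene picked for being even.

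**Figure D5:**
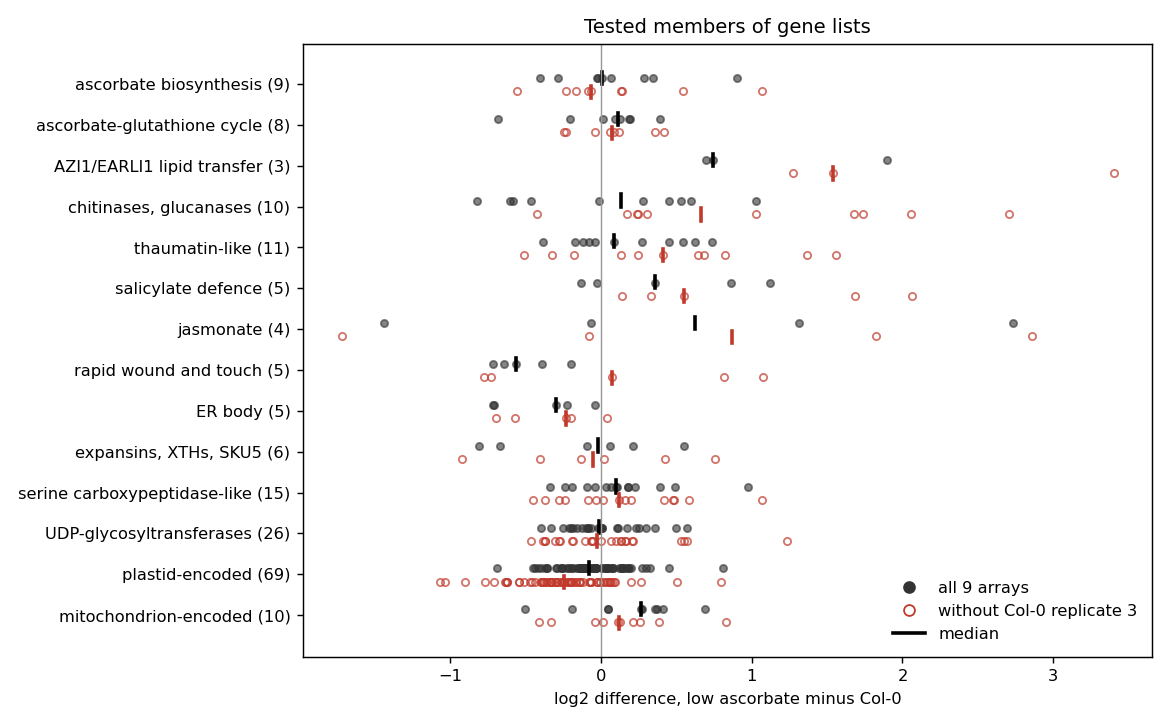
Log2 difference of low ascorbate from Col-0 (x axis) of each tested member of 14 gene lists (y axis, with the number tested), with all 9 arrays (filled grey circles) and without Col-0 replicate 3 (open red circles). Vertical bars are list medians. The AZI1 and EARLI1 list moves from a median of 0.74 to 1.54 and the wound and touch list from -0.56 to 0.08 when that array is left out. The median of the endoplasmic reticulum body list stays below 0, at -0.30 and -0.23.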

How the data were processed

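Affymetrix ATH1 arrays of 1 colour were hybridised with biotin-labelled total RNA, per the labels' protocols. The authors deposited 1 linear signal intensity for each probe set and array; the submitters' processing notes name GCOS and MAS5, whose versions are not given in the sources used here. The values were already scaled, which removes any change in total RNA, and were used as log2 without a pseudocount. Dim signals scatter widely on that scale. The 64 control probe sets were left out.

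Fits used limma 3.58.1 in R 4.3.3 (lmFit, eBayes with an intensity trend), with 6 against 3 arrays for low ascorbate and 3 group means between the mutants, and were tested on simulated data. Values after ± are SE. Alternatives were other scalings and filters, a pseudocount, array weights, a replicate block and the omission of each array. Figures used matplotlib 3.10.9.

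Names come from the platform annotation (13513 probe sets with 1 gene, 503 with several, 8794 not listed), updated through the TAIR10.1 gene table (13436 matched). The files name no genome build, so positions are left out. Of 755 members in 33 gene lists 402 had a probe set and 296 passed the filter. Members and lists were chosen with earlier results of these data known, and a list of 38 genes that led those results is no evidence. The naming rule took genes with complete separation, brightness above the median and an unadjusted p under 0.001, ranked by the smaller mutant difference (up to 12 a direction), then 3 rises and 3 falls called without Col-0 replicate 3, the 2 members of a list with the smallest p, and the ascorbate genes, by their brightest probe set. Not every gene that it allowed is described.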

Additional observations from a re-analysis of the deposited data

Results flagged for a closer look

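In 4 of 55 genes 1 of the 6 low-ascorbate arrays lay far from the others, by a gap of more than 0.625 of the group's range of log2 signals. About 1 group in 20 is picked out so by chance. The signal of AT4G32030 was 45.5 in vtc2-1 replicate 1 against 62.7 to 72.0 in the other mutant arrays. The signal of AT1G68440 was 91.0 in vtc2-1 replicate 3 against 131 to 149. The signal of COR15B was 51.8 in vtc1-1 replicate 3 against 83.3 to 109. The signal of the ascorbate oxidase-related AT5G21105 was 95.3 in vtc2-1 replicate 2 against 132 to 153.

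The probe set with no gene name was lower in vtc2-1 than in vtc1-1 by a log2 difference of -2.33 (limma adjusted p = 0.00109). The L-galactose dehydrogenase AT4G33670 had all 3 vtc1-1 arrays above and all 3 vtc2-1 arrays below the Col-0 mean, and the log2 difference of vtc2-1 from vtc1-1 was -0.30, which did not pass the test (95% interval -0.62 to 0.02, limma adjusted p = 0.998).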

How the results depend on the processing

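The count of calls with all arrays was 0 under 3 group means, no intensity trend, array weights (smallest limma adjusted p = 0.0925), quantile normalization, median centring, a pseudocount of 16, no filter, a filter in all 9 arrays, one at the 60th percentile and the replicate block. With single arrays left out it ran from 0 to 161, and calls between the mutants stayed at 1. Complete separations, easier to reach with fewer arrays, then ran from 467 to 2562, against 358 with all arrays. Calls between the mutants were 2 without the trend. Without Col-0 replicate 3 and vtc2-1 replicate 3, an alternative chosen after seeing the data, limma called 83 probe sets (57 higher, 26 lower) and 42 between the mutants, and 2936 separated completely. Whether replicate numbers pair the samples was not settled. Correlations of the deviations of same-numbered arrays ran from -0.0744 to 0.199, and those of different-numbered arrays of different genotypes from -0.223 to 0.12. The highest was 0.199 between Col-0 replicate 3 and vtc2-1 replicate 3, followed by 0.159 between Col-0 replicate 1 and vtc2-1 replicate 1. With the replicate block limma called 0, with 1056 at an unadjusted p under 0.05, against 920 without it. Of 1079 recomputed differences of named genes 1019 kept their direction and side of the threshold, 30 moved past it and 30 changed sign, all 30 in 7 ascorbate genes, whose differences with all arrays were smaller than their SE. With array weights these were AT2G40860 at -0.21, AT4G33670 at -0.00475, GLDH at 0.14 and TAPX at -0.14, and with median centring AT4G33670 at -0.000732. Without Col-0 replicate 3 and vtc2-1 replicate 3 they were AT2G40860 at -0.27, AT4G33670 at -0.00292, GLDH at 0.08, GR at -0.0434 and TAPX at -0.20. With single arrays left out AT1G74910 ran from -0.10 to 0.0709, AT2G40860 from -0.16 to 0.44, AT4G33670 from -0.0634 to 0.10, GLDH from -0.24 to 0.15, AT4G39830 from -1.28 to 0.0838, GR from -0.0419 to 0.24 and TAPX from -0.24 to 0.19. The cause of these changes was not tested. Signals below the 40th percentile allow only bounds.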
